A study of Homo sapiens with 6 samples.

Results

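RNA from loci that the deposited annotation leaves without a name was examined through 166 loci of the expression table that carry no gene symbol and lie far from every locus that does, out of 47577 loci in all. The members were chosen by 3 criteria: the symbol field is empty, 3 or more of the 6 libraries hold a normalized read count of 10 or above, and the coordinates (hg38) lie more than 10000 nucleotides from every locus with a symbol on the same chromosome. Of 20784 loci without a symbol, 5542 met the distance criterion, but 4875 of these were at 0 in every library and 501 were above 0 and under the minimum. The remaining 166 comprised 151 loci spread over the nuclear chromosomes and 15 on the mitochondrial chromosome, where no locus of the table has a symbol and the distance criterion is therefore empty.

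The data are polyA plus RNA-seq of OVCAR3, a line established from high-grade serous ovarian carcinoma. DMSO, the solvent, was given to the cells of 3 libraries, and 3 came from cells given 200 nM THZ531 for 6 h. Sample titles and the study design name THZ531, a covalent inhibitor of CDK12 and CDK13, while the treatment field of the labels names THZ1, a related covalent inhibitor. Both groups are the same cell line, for which no further allele or agent is given, and the labels call the 3 libraries of a group biological repeats. Between 53054048 and 70986130 reads per library were assigned to loci. Every serous epithelial marker examined was present (WT1 lowest at 514, KRT8 highest at 232697), while markers of other cells stayed between 18.2 and 86.5 except COL1A1, at 942 to 2338.

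CDK12 and CDK13 phosphorylate the C-terminal domain of RNA polymerase II while it moves along a gene, which keeps the enzyme processive and couples transcription to splicing and to 3′ end formation. RNA that maps between genes has several known sources: long non-coding RNA (lncRNA) genes, distal exons or 3′ ends that an annotation has not joined to their gene, and processed pseudogenes, which are intronless copies of a messenger RNA pasted back into the genome. Reads of a processed pseudogene cannot always be told from those of its parent gene.

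Comparison with GENCODE v44, another gene catalogue, showed how far the absence of a symbol reflects an absence of genes. Of the 151 nuclear loci, 131 overlapped some GENCODE gene on either strand and 77 overlapped one that has a symbol, so "far from named genes" holds for the symbols of the deposited table only. A lncRNA gene covered 68 of the loci, a processed pseudogene 23, another kind of pseudogene 10, a protein-coding gene 14 and a gene of the unverified class TEC 3, whereas 33 had no gene covering them on their strand. Where genes of several classes covered a locus, pseudogenes were given first. Nuclear loci without an assigned strand, 23 in number, were classed by genes on either strand. The loci were short, with a median length of 2574 nucleotides against 27951 for nuclear loci with a symbol. They were also low, with a median normalized read count of 37.4 over the 6 libraries against 750.3 for loci with a symbol and 33.2 for the other unnamed loci that passed the same minimum. Per kilobase of genomic span the medians lay closer, at 13.8, 24.2 and 16.7, respectively. The span includes introns, so these are not levels per length of RNA.

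Sequences are shown for 2 sets of loci. Of those shown, the chromosome 4 locus labelled without a gene has no gene covering it on its strand, although it overlaps a GENCODE gene. The first set holds locus ends of the most changed lncRNA and uncovered loci, because the hexamer AATAAA, the main polyadenylation signal, sits close upstream of most messenger RNA 3′ ends. The last 60 bases of 4 loci among those named below contain it, in capitals, 12 to 19 bases before the locus end (hg38, read 5′ to 3′ on the strand of the locus):
MIRLET7IHG locus, lower (chr12:62616853-62616912, plus strand): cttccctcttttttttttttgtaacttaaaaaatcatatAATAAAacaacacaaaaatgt
LINC00662 distal locus, lower (chr19:27730273-27730332, minus strand): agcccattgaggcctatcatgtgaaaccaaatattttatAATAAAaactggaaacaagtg
chromosome 4 locus without a gene, lower (chr4:183732223-183732282, minus strand): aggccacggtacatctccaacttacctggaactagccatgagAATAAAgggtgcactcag
LINC01023 locus, higher (chr5:108725705-108725764, minus strand): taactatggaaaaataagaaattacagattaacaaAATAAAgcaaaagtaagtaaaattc

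Over the members whose strand could be assigned and that span the window, AATAAA occurred in the last 50 bases of 37 of 125 (29.6%). The share was 27.0% of 1957 other unnamed loci, 60.9% of 15217 loci with a symbol and 56.8% of all 17299 expressed loci examined. The variant ATTAAA was found in 8.80% of the members and 17.0% of all loci. The search was made on the strand of the locus, and the reverse strand of the same windows held AATAAA in 4.80% of the members and 7.17% of all loci. Among called members the hexamer was present in 8 of 18 that were higher and 13 of 47 that were lower in THZ531.

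The second set pairs processed pseudogene loci with the coding sequence of their parent gene, because these loci hold the highest nuclear values of the group and their near-identity bears on those values. RPL21P16 was named by its level, and PSMC1P1 and RPSAP15 were chosen after their values were seen. The RPSAP15 window holds 5 mismatches in 60 bases, whereas the whole match to RPSA has 23 over 1030 bases (97.8% identity). Capitals mark bases that differ between locus and parent (hg38 for the loci, GENCODE v44 transcripts for the parents, read in the direction of the parent):
RPL21P16 locus (chr10:120355124-120355183, minus strand): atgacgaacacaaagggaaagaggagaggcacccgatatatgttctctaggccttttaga
RPL21 coding sequence: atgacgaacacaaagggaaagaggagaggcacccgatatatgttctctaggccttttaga
PSMC1P1 locus (chr3:68636559-68636618, plus strand): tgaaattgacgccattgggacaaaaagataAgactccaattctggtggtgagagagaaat
PSMC1 coding sequence: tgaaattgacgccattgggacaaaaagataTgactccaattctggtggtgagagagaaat
RPSAP15 locus (chrX:87703527-87703586, minus strand): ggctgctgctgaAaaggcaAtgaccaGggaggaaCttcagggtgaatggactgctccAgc
RPSA coding sequence: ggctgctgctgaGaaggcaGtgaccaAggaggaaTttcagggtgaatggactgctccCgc

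In THZ531, 22 of the 166 loci were higher and 56 lower than in DMSO, while 88 were not called. The call needed a 1.5-fold difference or more and p of 0.05 or less in limma on log2(normalized read count + 1), fitted over all 17568 expressed loci. The adjusted p was also at most 0.05 for all 22 higher and for 54 of the 56 lower loci. Over all expressed loci 15.7% were higher and 23.9% lower, against 13.3% and 33.7% of the 166. Of the 151 nuclear loci alone 14.6% were higher and 37.1% lower. The median log2 fold change was -0.12 over the 166 and -0.0071 over all loci, and that of 2124 other unnamed loci was 0.19. In these bulk libraries fewer cells that express a locus and less RNA per cell cannot be told apart.

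How a locus passed the minimum bears on its direction. All 6 libraries were at 10 or more for 110 of the 166, and in these 13 were higher (11.8%) and 27 lower (24.5%), beside 14.2% and 23% of all loci that passed in this way. The shares of these 110 thus lay near the background. They include the 15 mitochondrial loci, none of them called, and of the 95 nuclear ones 13.7% were higher and 28.4% lower. A further 34 loci reached 10 in all DMSO libraries but not in all THZ531 libraries, and 28 of them were lower and none higher. For 17 the reverse held, and 9 of them were higher and none lower. Entry through 1 group favours a difference in that direction, so these calls are a description only.

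Several loci lay close to the limits of the rule. The locus nearest to the distance limit was the MIRLET7IHG locus, 10055 nucleotides from a symbol, followed by a 27-base locus on chromosome 3 at 10063 nucleotides. The nearest unnamed loci left out lay at 9575 and 9510 nucleotides. At the limit of the read count, the locus chr4:8506828-8512610 was at 10.3, 14.8 and 18.4 in DMSO and 6.30, 2.27 and 4.55 in THZ531, and chr6:37567716-37571460 at 10.3, 28.8 and 23.9 in DMSO and 0, 6.82 and 2.28 in THZ531. The closest loci left out were at 11.9, 9.28 and 28.7 in DMSO and 0, 0 and 5.69 in THZ531 (chromosome 10) and at 12.7, 12.1 and 3.19 in DMSO and 5.04, 2.27 and 9.10 in THZ531 (chromosome 6).

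Direction was then set out by what GENCODE places at each locus. Loci under lncRNA genes numbered 12 higher and 24 lower of 68, with a median log2 fold change of -0.29. The 33 loci without a covering gene included 6 higher and 15 lower, with a median of -0.81. Of the 14 inside protein-coding genes, 1 was higher and 7 lower, with a median of -0.76. Among 10 pseudogenes that were not processed copies, 1 was higher and 5 lower. Processed pseudogenes stood at the other end of the order, with 1 higher, 4 lower and 18 not called of 23, and a median of 0.32 that became -0.17 under a scaling to equal RPL34 reads. That scaling lowers the median of all loci to -0.50. The class is not limited to intronless copies. Its lower loci include one in PDCL3P4, a gene of 26475 nucleotides in which the locus holds no exonic bases. Another lies in ENSG00000228463, which spans 101818 nucleotides. With all libraries at 10 or more the counts were 6 higher and 13 lower of 42 for lncRNA, 4 and 7 of 18 for uncovered loci, 1 and 1 of 7 for protein-coding genes and 1 and 2 of 20 for processed pseudogenes. The medians of these restricted sets were -0.24, -0.42, 0.0014 and 0.32, so that the low median of protein-coding genes was not seen in the 7 loci above the minimum throughout. The order of the medians was not tested.

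**Figure D1:**
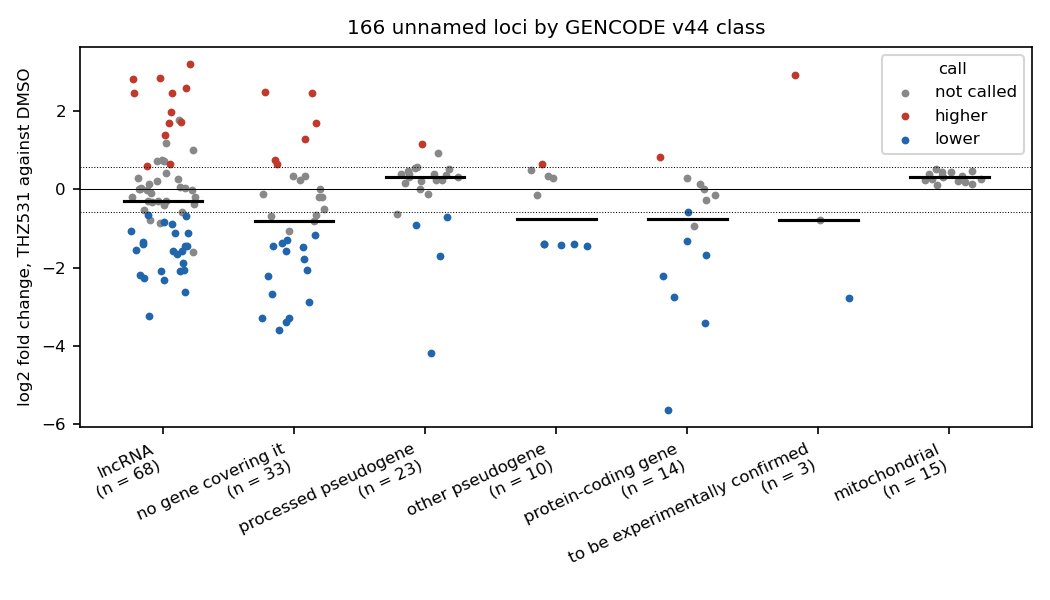
Log2 fold change (THZ531 against DMSO) of each of the 166 loci on the vertical axis, by GENCODE v44 class on the horizontal axis, with the 3 loci of class TEC in the sixth column. Points are loci coloured by call, black bars are medians and dotted lines mark a fold change of 1.5 either way; the lncRNA median is -0.29, and those of processed pseudogenes (0.32) and mitochondrial loci (0.31) fall to -0.17 and -0.18 under the RPL34 scaling.

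The 10 most reduced loci that averaged 50 or more, with no overlap between groups, included 5 under lncRNA genes and 5 without a covering gene. The largest of these decreases was that of chr1:117839635-117841771 on the minus strand, with 119, 135 and 161 in the DMSO libraries and 21.4, 2.27 and 30.7 in the THZ531 libraries. Its log2 fold change was -3.38 (SE 0.59, adjusted p = 9.62e-05), and 1 THZ531 library lay far below the other 2, without overlap with DMSO. This locus reached 10 in all DMSO libraries but not in all THZ531 libraries, so its call is a description only. The flanking named genes were higher: GDAP2, 21714 nucleotides away, by 0.92 on the log2 scale, and TENT5C, a cytoplasmic poly(A) polymerase 211246 nucleotides away, by 2.06. Without THZ531 replicate 2 the value of the locus was -2.37, and without THZ531 replicate 3 it was -4.01.

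A 42840-nucleotide stretch on chromosome 3 (chr3:187834255-187877094, minus strand) had no gene covering it. It was at 206, 202 and 229.8 in the DMSO libraries and 36.5, 39.8 and 63.7 in the THZ531 libraries, a log2 fold change of -2.21 (SE 0.23, adjusted p = 2.89e-07). All THZ531 libraries were below all DMSO libraries. The nearest expressed named gene, BCL6, a transcriptional repressor known from germinal centre B cells, lies 88568 nucleotides away and was higher, at 888 in DMSO and 2496 in THZ531 (log2 fold change 1.49).

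A pair of reduced loci lies in exons of lncRNA genes downstream of the gene start. The locus chr2:87585448-87589240 is exonic in CYTOR, a lncRNA studied in several cancers, 130667 bases from the gene start, and was at 187, 203 and 184 in the DMSO libraries and 32.7, 47.7 and 56.9 in the THZ531 libraries. It fell by 2.08 on the log2 scale (adjusted p = 5.76e-07), and all of its bases are repeated elsewhere in the genome at 98% identity or more, so its reads cannot be placed with certainty. The locus chr12:62613824-62616912 is exonic in MIRLET7IHG, the host gene of the microRNA let-7i, 11072 bases from the gene start, with 59.5, 116 and 125 in the DMSO libraries and 17.6, 22.7 and 27.3 in the THZ531 libraries. Its log2 fold change was -2.05 (SE 0.33, adjusted p = 3.94e-05), while the neighbour PPM1H, a protein phosphatase, was not called (-0.11).

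The more abundant reduced loci had tight replicates. The locus chr6:3904925-3911979, which begins 93 bases from the start of the lncRNA gene ENSG00000260604 and is exonic throughout, was at 1233, 1369.6 and 1204 in the DMSO libraries and 370.3, 452 and 386 in the THZ531 libraries. This is a log2 fold change of -1.66 (SE 0.09, adjusted p = 1.79e-10). Its neighbours FAM50B and PRPF4B, a pre-mRNA splicing kinase, were not called (0.25 and 0.21). The locus chr17:47051294-47054066, in an exon of ENSG00000262879, was at 725, 709 and 780.3 in the DMSO libraries and 173, 248 and 187 in the THZ531 libraries, a log2 fold change of -1.88 (SE 0.13, adjusted p = 2.2e-09). Of its bases 53.8% recur elsewhere in the genome at 98% identity or more, and the pseudogene LRRC37A17P covers it on the opposite strand. Neither GOSR2, a Golgi SNARE protein, nor CDC27, a subunit of the anaphase-promoting complex, was called beside it (-0.53 and -0.11).

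The locus chr11:12958865-12961688 held the highest value among reduced members. It continues past the 3′ end of the lncRNA gene LINC00958 on the same strand, overlapping only its last bases in GENCODE, and was at 2189, 2250.2 and 2430.4 in the DMSO libraries and 796, 762 and 958 in the THZ531 libraries. Its log2 fold change was -1.45 (SE 0.079, adjusted p = 1.81e-10). LINC00958 itself, 17847 nucleotides upstream in the table, fell from 5332 to 1128 (log2 fold change -2.24), and TEAD1, a transcription factor of the Hippo pathway on the other side, was not called (-0.26).

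A further 2 uncovered loci were reduced, each with a nearby gene that was not called. The locus chr5:37077632-37079942 lies 11219 nucleotides from NIPBL, the cohesin loader, and was at 79.4, 100.2 and 104 in the DMSO libraries and 44.1, 22.7 and 29.6 in the THZ531 libraries. It fell by 1.57 (log2 scale) while NIPBL was not called (0.27) and CPLANE1, a ciliogenesis gene on the other side, was lower (-1.27). The locus chr4:183732223-183737573, beside TRAPPC11, a vesicle tethering factor, was at 303, 338 and 276 in the DMSO libraries and 122, 86.4 and 123 in the THZ531 libraries, a log2 fold change of -1.47 (SE 0.17, adjusted p = 9.54e-07). TRAPPC11 was not called (-0.19), whereas STOX2 on the far side was higher (0.76).

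The 10 most increased loci were mostly low in DMSO. The largest increase, at chr3:141306488-141311695 (minus strand, intronic in the lncRNA gene ENSG00000249417), was that of a locus at 17.5, 11.1 and 12.0 in the DMSO libraries and 94.5, 102 and 64.8 in the THZ531 libraries. Its log2 fold change was 2.60 (SE 0.34, adjusted p = 4.01e-06). In GENCODE the gene PXYLP1 covers at least 50% of this locus on the opposite strand. The nearest named loci of the table, PXYLP1 and ZBTB38, are on the plus strand and were lower. The PXYLP1 locus, 11564 nucleotides away, had a log2 fold change of -1.58, and ZBTB38, a zinc finger protein that binds methylated DNA, one of -0.94.

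A lowly expressed lncRNA locus on chromosome 5 was also higher. The locus chr5:108725705-108728293 covers LINC01023 and was at 19.1, 24.1 and 35.9 in the DMSO libraries and 68.0, 116 and 78.5 in the THZ531 libraries, with a log2 fold change of 1.70 (SE 0.32, adjusted p = 0.000174). FER, a tyrosine kinase gene 19529 nucleotides away, was not called (0.37).

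The locus chr1:16514643-16515753 covers ENSG00000261135 and rose from 20.5 ± 5.99 (SD, n = 3) to 87.3 ± 35.2, with a near-identical copy elsewhere over its whole length. The processed pseudogene ADGRA3P1, a copy of an adhesion receptor gene, was at 92.1, 49.2 and 47.9 in the DMSO libraries and 147, 131 and 132 in the THZ531 libraries. It was the only one of 23 processed pseudogenes called higher (1.17, SE 0.25, adjusted p = 0.000601). An uncovered locus beside NET1, a RhoA exchange factor (chr10:5484641-5486593), went from 108 ± 24.1 (SD, n = 3) to 259 ± 23.9, while NET1 was not called (0.54).

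At the start of the gene SERTAD2, a transcriptional coregulator, the locus chr2:64748490-64751091 overlapped the start of the GENCODE gene. It was at 108, 109 and 122 in the DMSO libraries and 210.3, 183 and 212 in the THZ531 libraries and rose by 0.83 on the log2 scale (SE 0.16, adjusted p = 0.000221). The SERTAD2 locus of the table, 94574 nucleotides downstream, rose by 0.90. Under the RPL34 scaling the unnamed locus was no longer called (0.34). The last of the 10, chr9:40594334-40605413, rose by 0.76 with copies over its whole length, and lost its call without THZ531 replicate 3 (0.56) and under 2 scalings.

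**Figure D2:**
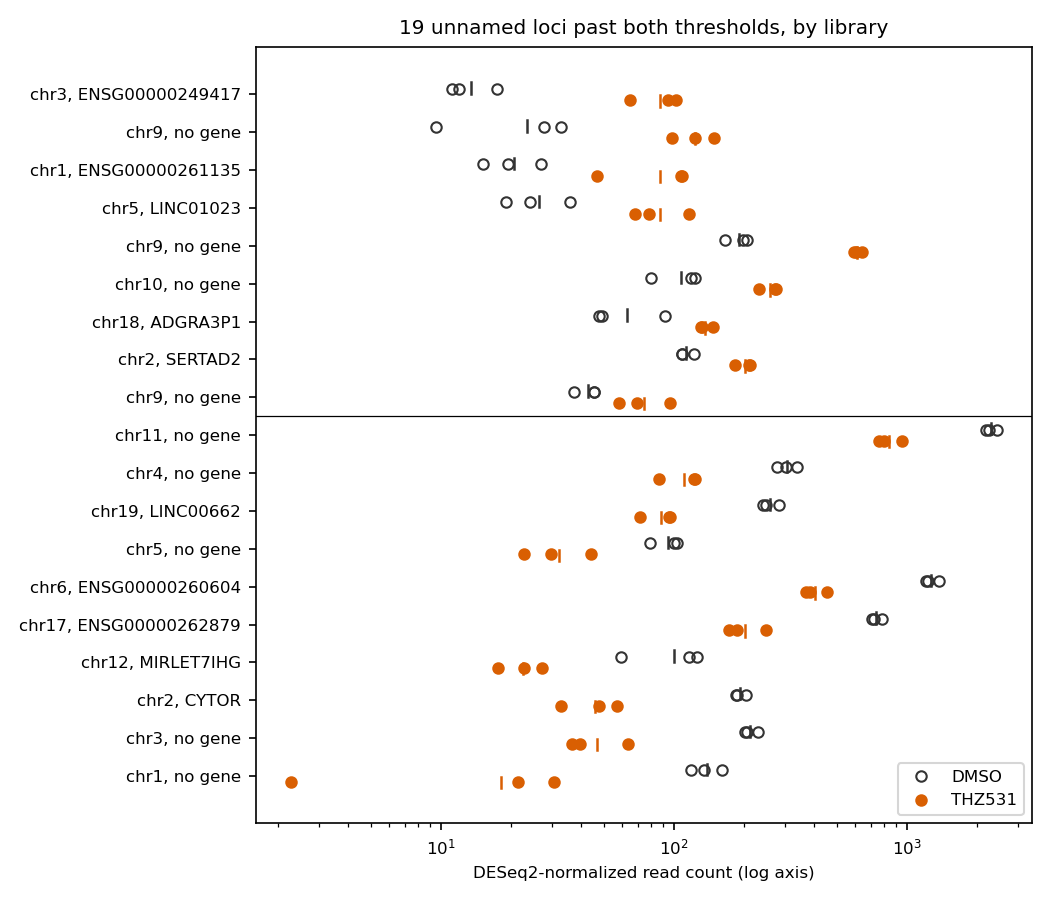
Normalized read counts (log axis) of 9 of the 10 most increased loci, above the line, and the 10 most reduced, below it, all of them averaging 50 or more and with DMSO apart from THZ531. Open circles are the 3 DMSO libraries, filled circles the 3 THZ531 libraries and short vertical lines the group means; the lowest single value, 2.27, is 1 THZ531 library of the chromosome 1 locus.

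Loci inside larger genes allowed the change to be placed against the gene start. A strand could be assigned to 73 loci under lncRNA or protein-coding genes. The distance limits of 1000 and 20000 bases were set with the values known, and the shares are descriptions. Within 1000 bases of the gene start (or upstream of it), 6 of 36 loci were higher and 8 lower, with a median log2 fold change of 0.0026. Between 1000 and 20000 bases 2 of 14 were higher and 7 lower, with a median of -1.24. Beyond 20000 bases, 2 of 23 were higher and 14 lower, with a median of -1.32. With all libraries at 10 or more, the medians were -0.014 over 25 loci (3 higher, 4 lower), -0.66 over 6 (1 and 3) and -0.29 over 11 (1 and 5), so the medians beyond 1000 bases lay closer to 0 in these loci.

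**Figure D3:**
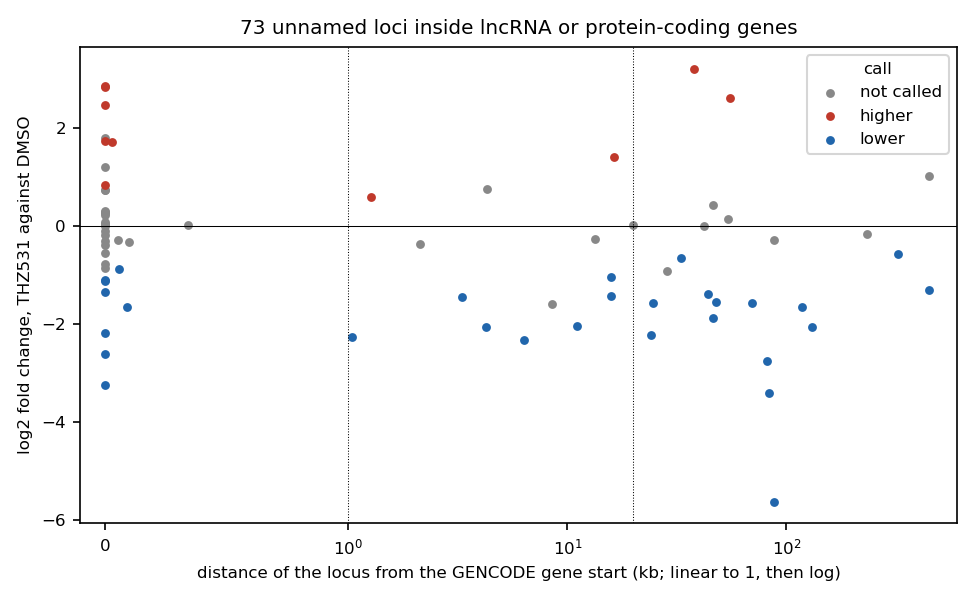
Log2 fold change of 73 loci (vertical axis) against the distance of the locus from the start of the GENCODE gene that covers it, in kb (horizontal axis, linear to 1 and logarithmic beyond; loci that begin upstream are drawn at 0). Points are coloured by call and dotted lines mark 1 and 20 kb; the medians are 0.0026, -1.24 and -1.32 from left to right, and -0.014, -0.66 and -0.29 over loci with all libraries at 10 or more.

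For 20 loci in 18 genes the covering gene has its own locus with a symbol, which allows both to be read side by side. On the 3′ side of that named locus lie 16 of the 20, in 14 genes. Entry through 1 group again favours a direction, so the calls of such loci are a description. The 7 that reached 10 in all DMSO libraries but not in all THZ531 libraries (those in ALOX12P2, BLCAP, CCDC91, CDK12, PUM3, VOPP1 and ZNF800) were all lower, and the 2 that did so in THZ531 only (LINC00910 and the first of LINC00662) were both higher. Of the 7 with all libraries at 10 or more, 4 were lower (CYTOR, 2 in LINC00662 and RUNX2), none higher and 3 not called, where 23% of all loci that passed in this way were lower. Each of these 7 had a log2 fold change below that of the named locus of its gene. The loci in CYTOR and NOMO2 are repeated elsewhere at 98% identity or more over all their bases. Their reads cannot be placed with certainty, and the NOMO2 locus has no assigned strand. Only 4 of the 7 lie in protein-coding genes, where 1 (RUNX2) was lower, just past the fold threshold, and the median was -0.065. The named loci had a positive value in 12 of the 14 genes as deposited and in 8 under the RPL34 scaling.

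CDK12, which encodes one of the kinases that THZ531 targets, was among the genes whose distal locus passed in DMSO only. The locus chr17:39548941-39550976 lies in GENCODE exons of CDK12, 87455 bases from the gene start and 14397 nucleotides beyond the named CDK12 locus, and was chosen for description after its values were seen. It was at 58.7, 50.1 and 39.1 in the DMSO libraries and 0, 0 and 0 in the THZ531 libraries. With 177 reads in DMSO and 0 in THZ531 it was at least 42.0-fold lower, taking 3 reads over the 3 THZ531 libraries as the limit that a count of 0 allows for counting error. The named CDK12 locus was at 6762 ± 105 (SD, n = 3) in DMSO and 8835 ± 357 in THZ531, a log2 fold change of 0.39 that was not called. No other member was at 0 in all libraries of a group.

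LINC00662, a lncRNA on the minus strand of chromosome 19, was represented by 3 consecutive members and its own named locus. The named locus at the gene start rose from 158 ± 19.6 (SD, n = 3) to 432 ± 41.2, a log2 fold change of 1.45. The first member (chr19:27775757-27777635, 16370 bases from the start) was at 7.94, 20.4 and 16.0 in the DMSO libraries and 27.7, 46.6 and 42.1 in the THZ531 libraries. The second (chr19:27757185-27760851, 33154 bases) was at 61.9, 65.0 and 65.4 in the DMSO libraries and 52.9, 35.2 and 34.1 in the THZ531 libraries. The third (chr19:27730273-27746230, 47775 bases) was at 283, 240.3 and 249.7 in the DMSO libraries and 71.8, 95.5 and 96.7 in the THZ531 libraries. Along the gene the log2 fold changes thus ran from 1.45 through 1.39 and -0.67 to -1.55. In GENCODE the first member is exonic throughout, the second holds no exonic bases and the third is 19.1% exonic. The call of the middle locus was lost without DMSO replicate 2 (-0.66), DMSO replicate 3 (-0.65), THZ531 replicate 2 (-0.58) or THZ531 replicate 3 (-0.56), whereas the outer loci kept theirs in every such fit. The first member passed the minimum in THZ531 only and was not called under the RPL34 scaling (0.92).

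CYTOR, whose libraries were all above the minimum, had a higher named locus and a lower distal one, with 1290.1 in DMSO and 2162 in THZ531 at the named locus (log2 fold change 0.75) and -2.08 at the exonic locus 63930 nucleotides downstream. The next 3 distal loci passed in DMSO only. BLCAP, a regulator of apoptosis, was not called at its named locus (0.44), while the exonic locus 13442 nucleotides downstream went from 50.3 ± 16.3 (SD, n = 3) to 11.9 ± 10.4 (-2.22, SE 0.52, adjusted p = 0.00117). PUM3, a nucleolar RNA-binding protein, was higher at its named locus (0.60), and the locus 43320 nucleotides beyond it fell from 28.4 to 2.36 (-3.41, SE 0.70, adjusted p = 0.000421). ZNF800, a zinc finger protein, was also higher (0.75) with a lower distal locus (-2.76, SE 0.76, adjusted p = 0.00421). RUNX2, the osteoblast transcription factor, with all libraries of its distal locus above the minimum, rose by 0.79 and its distal locus, 99754 nucleotides on, was at -0.59 (adjusted p = 0.0447). That value lies just past the 1.5-fold threshold.

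Distal loci that passed in DMSO only were lower in VOPP1 (-1.67), CCDC91 (-1.32) and ALOX12P2 (-1.58), whose named loci were at 0.24, -0.19 and 1.08. The distal locus in CCDC91, with an adjusted p of 0.0596, was 99.9% exonic, whereas those in VOPP1 and ALOX12P2 held no exonic bases. Distal loci in NOMO2, TTC5 and NAF1, the last an assembly factor of H/ACA ribonucleoproteins, were not called (-0.13, 0.0014 and 0.14). They were 27.8%, 13.0% and 6.31% exonic, respectively. LINC00910 had a distal intronic locus that passed in THZ531 only and rose from 3.01 ± 2.23 (SD, n = 3) to 33.9 ± 12.0 while the named locus was at -0.72. Loci on the 5′ side of the named locus were found in SERTAD2, FAM174B, PSTK and PDP1, and only that of SERTAD2 was called.

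**Figure D4:**
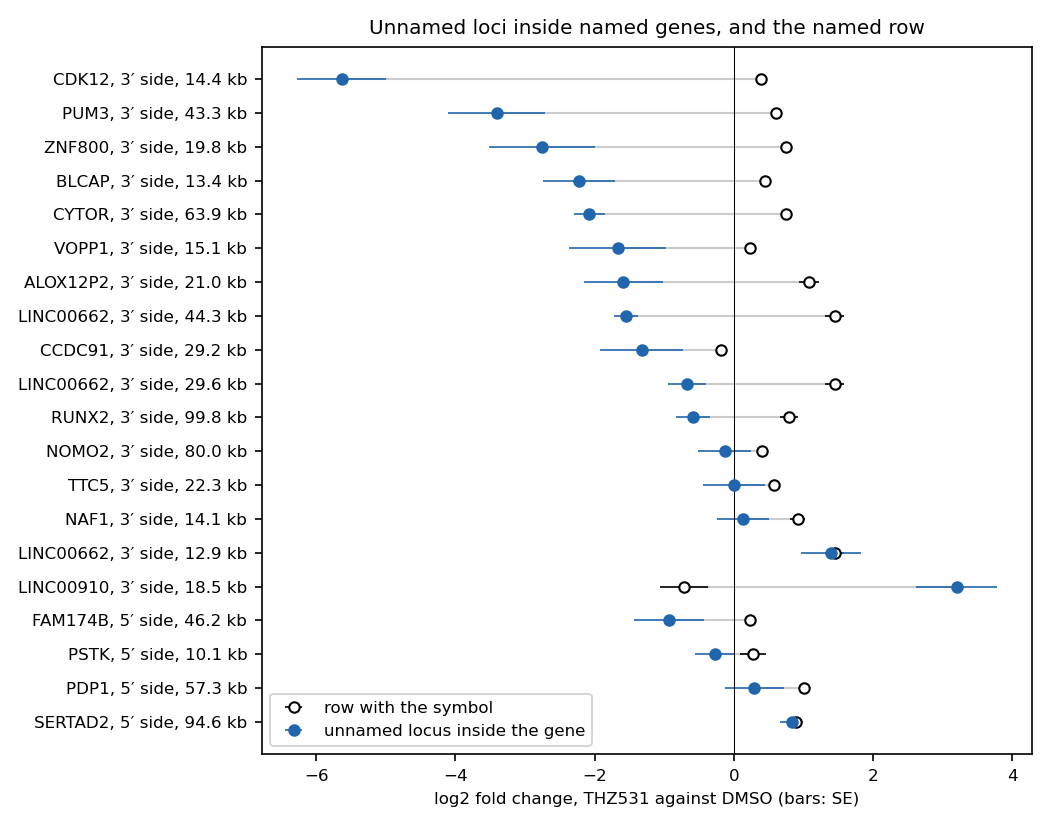
Log2 fold change with its SE (horizontal axis) of 20 unnamed loci (filled) and of the locus that carries the symbol of the same gene (open), joined by a grey line, with the side and the distance in kb from the named locus in each label. The filled point is left of the open one in 15 of the 16 loci on the 3′ side, 7 of which passed the minimum in DMSO only; the CDK12 value depends on the pseudocount because its THZ531 libraries were at 0.

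Other runs of neighbouring members did not always move together. Setting aside the mitochondrial chromosome, 26 members stood in 11 runs with no other expressed locus between them, and 4 runs held 3 members. On chromosome 17 all 3 were lower: -1.45 for a locus in the pseudogene LRRC37A17P, -1.88 for the ENSG00000262879 exon and -1.39 for a 28-base locus whose call was lost when any 1 DMSO replicate was left out. The 28-base locus passed the minimum in DMSO only. The LRRC37A17P locus has no assigned strand and also lies within ENSG00000262879, which is on the opposite strand to the pseudogene. All bases of that locus recur elsewhere at 98% identity or more. On chromosome 10 the 2 loci under ENSG00000285958 were lower (-2.32 and -2.08), the first at -1.46 without THZ531 replicate 1 and -3.20 without THZ531 replicate 2. Both passed the minimum in DMSO only. The LINC02672 locus, 250131 nucleotides from any symbol, was at 382 ± 19.2 (SD, n = 3) in DMSO and 356 ± 23.9 in THZ531 and was not called (-0.10). On chromosome 9 the plus-strand locus chr9:66267767-66285268 was not called (-0.18), although it overlaps 2 members that were higher. These were chr9:66267552-66270858, at 166, 198 and 207 in the DMSO libraries and 645, 604 and 594 in the THZ531 libraries (1.69, SE 0.11, adjusted p = 2.2e-09), and chr9:66273921-66275797 on the minus strand, at 9.53, 27.8 and 32.7 in the DMSO libraries and 149, 123 and 97.8 in the THZ531 libraries (2.49, SE 0.38, adjusted p = 2.4e-05). The minus-strand locus passed the minimum in THZ531 only, and the calls of loci that passed in 1 group are a description. All 3 lie in a region with near-identical copies, and whether reads were counted by strand is not stated, so that reads of overlapping loci may not be separated.

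Over the 2 other most isolated loci, no change was called. The locus chr5:85663232-85664684, farthest of all at 617760 nucleotides from a symbol, was at 17.5, 47.3 and 28.7 in the DMSO libraries and 40.3, 35.2 and 29.6 in the THZ531 libraries, with overlapping groups. The 78180-nucleotide locus chr13:54572244-54650423, at 260196 nucleotides, was at 35.5 ± 1.93 (SD, n = 3) in DMSO and 36.7 ± 5.31 in THZ531 (0.038, SE 0.31, adjusted p = 0.917). The nearest named loci were mixed in direction. For the 22 higher members the nearest one was higher in 2 cases, lower in 3, not called in 10 and under the minimum in 7, and for the 56 lower members these counts were 11, 6, 23 and 16. For the 73 nuclear members not called they were 3, 13, 30 and 27. Over all expressed loci, which leave out those under the minimum, 15.7% were higher and 23.9% lower. Differences between these shares were not tested.

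The 3 highest nuclear values belonged to processed pseudogenes and were not called. A protein-coding transcript matched 15 nuclear loci over at least 70% of their length at 92.7% to 100% identity, and 6 of the 10 nuclear members with the most reads were among them. These are read counts, not levels per length. The RPL21P16 locus (chr10:120354654-120355227), identical to RPL21 messenger RNA over 566 bases, was at 33617, 31669 and 31707 in the DMSO libraries and 43409, 42474 and 42182 in the THZ531 libraries. RPL21, a protein of the large ribosomal subunit, was itself listed at 997 ± 93.8 (SD, n = 3) in DMSO and 1494 ± 49.9 in THZ531. The pseudogene locus thus held far more reads than the parent locus, and the log2 fold changes were 0.40 and 0.59.

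The same layout held for 2 more genes. The PSMC1P1 locus (chr3:68635698-68637033), with 1 mismatch to PSMC1 over 1336 bases, was at 17696 ± 663 (SD, n = 3) in DMSO and 20873 ± 423 in THZ531, against 239 and 316 for PSMC1, an ATPase subunit of the proteasome. The RPS28P7 locus (chr11:82689547-82689904), with 1 mismatch to RPS28 over 358 bases, was at 12821 ± 1691 (SD, n = 3) in DMSO and 18619.5 ± 266 in THZ531, against 841 and 970.3 for RPS28, a protein of the small ribosomal subunit. For these 3 loci the adjusted p was between 2.74e-08 and 2.15e-05, and the fold change stayed under 1.5 in each. How reads were divided between identical copies was not tested.

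Over the 15 pairs the parent locus held more reads in 10 and the unnamed locus in 5, RWDD4P2 and the LRRC37A17P locus included. RPSAP15, with 23 mismatches to RPSA, the laminin receptor and a ribosomal protein, was at 5203 in DMSO against 34422 for RPSA. HSP90AA2P and HSP90AB3P, copies of the cytosolic chaperone genes HSP90AA1 and HSP90AB1 at 97.3% and 97.1% identity, were at 1544 and 763 against 220537 and 260303. The only members of this set that were lower were copies of PBX2 (-0.91), MPPE1 (-0.70) and LRRC37A2 (-1.45). The parents PBX2, a homeodomain transcription factor, and MPPE1 were lower too (-0.71 and -0.77), whereas LRRC37A2 was not called (0.52). Of the 15 loci, 10 had a positive log2 fold change as deposited and 2 did under the RPL34 scaling.

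**Figure D5:**
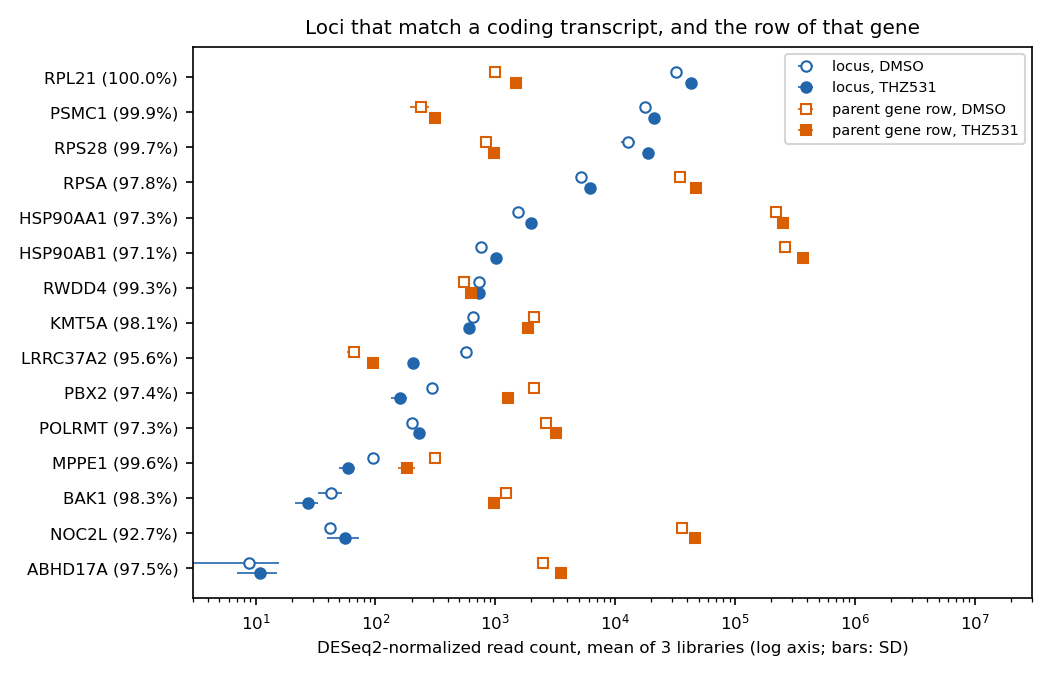
Mean normalized read counts with SD (log axis, n = 3 libraries a group) of 15 unnamed loci that match a protein-coding transcript (circles) and of the locus of that gene (squares), open for DMSO and filled for THZ531, with the percent identity of the match in each label. The circles lie right of the squares for RPL21, PSMC1 and RPS28, and left of them for RPSA, HSP90AA1 and HSP90AB1.

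Copies were not limited to pseudogenes. In 32 of the 151 nuclear loci over 50% of the bases recur elsewhere in the genome at 98% identity or more, and 6 of the 32 were higher and 12 lower. Of the other 119, 16 were higher and 44 lower. In the lncRNA gene ENSG00000276850, whose 2 members are copied throughout, the locus at the gene start rose from 585 ± 18.2 (SD, n = 3) to 917 ± 15.1 and the one 20503 bases into the gene fell from 1641 ± 28.7 (SD, n = 3) to 919 ± 106. The log2 fold changes were 0.65 and -0.84. Neither locus has an assigned strand, so their place in this gene and their distances from its start assume the strand of the gene. The locus at the gene start also matches an ANXA8 transcript at 98.9% identity over 1801 bases, and the other holds no exonic bases.

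The mitochondrial loci took 8.50% to 10.1% of all reads in each library and did not pass the fold threshold. Their log2 fold changes lay between 0.11 and 0.53 with a median of 0.31 that became -0.18 under the RPL34 scaling, and the adjusted p was at most 0.05 for 13 of 15. The longest, chrM:5584-12142, was at 2790020 ± 267185 (SD, n = 3) in DMSO and 3172970 ± 85207 in THZ531.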

How the data were processed

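PolyA plus stranded libraries of OVCAR3 cells were mapped by the authors to hg38 with STAR (2.7.5a in the submitters' processing notes, another version in the methods) and counted with featureCounts on the FAST DB annotation. The deposited values are a signal, namely read counts divided by a DESeq2 size factor per library, not corrected for length. All values were whole multiples of the value of 1 read (tolerance 0.01), so reads were recovered for edgeR 4.0.16 and DESeq2 1.42.0 as alternatives. THZ531 and DMSO (3 libraries each) were compared with limma 3.58.1 (trended) on log2(value + 1) over 17568 loci at 10 or more in at least 3 libraries, with Benjamini-Hochberg adjusted p-values; the script was tested on simulated data. SE and SD rest on the spread between libraries, and the floor of 3 reads covers counting error only. Strand was taken from the order of identifiers (195 of 196 checked loci agreed). Copies were searched with blastn 2.17.0 and minimap2 2.31 in hg38 and GENCODE v44. Named loci were the 10 with the largest change each way among called loci with a mean of at least 50 and no overlap between groups, the highest, the most isolated, those at the limits and the longest runs; 1 of the increased loci is not reported here. The members, lists and this rule were chosen with earlier results of these data known.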

Additional observations from a re-analysis of the deposited data

How the results depend on the processing

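Without a minimum, 667 loci entered and 117 were lower (median log2 fold change -0.28). With a minimum of 50, 83 remained with 14 higher, 25 lower and a median of 0.14, and with at least 10 in all 6 libraries the counts were 13 and 27 and the median 0.030. A distance over 5000 nucleotides gave 87 lower loci and a median of -0.22, and over 50000 gave 6 higher, 11 lower and 0.20. The sign of the median thus rests on which loci are admitted. Equal totals and RPL34 scaling shifted all loci by -0.24 and -0.49 on the log2 scale, and the median of the members to -0.35 and -0.60. Equal totals kept 17 of the 22 higher and all 56 lower calls and added 9 lower ones. RPL34 scaling kept 15 higher and all 56 lower calls and added 17 lower ones. Chosen after seeing the data, the nuclear loci alone, and those of them with at most 50% of their bases in a near-identical copy, gave medians of -0.27. Leaving out each library gave 21 to 28 higher and 50 to 58 lower loci and medians of -0.14 to -0.06. With the replicate block 24 were higher and 54 lower, but same-numbered libraries did not deviate together (correlations of -0.045, -0.007 and -0.026), so the numbers do not pair the libraries. The other alternatives stayed within 1.5 times the main counts. For 49 named loci, 712 of 735 values kept their side of the thresholds, 18 lost the call, 5 gained one and none reversed; the cause was not tested. Depth limits loci near 10, where 1 read is worth 0.794 to 1.26.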
